A study of Sus scrofa with 6 samples.

Results

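The genes of the cytosolic ribosomal proteins were examined in ventricular myocardium of Tibetan minipigs. Members were chosen by name alone: every gene of the deposited table whose symbol starts with RPL or RPS and a digit, together with RPLP0, RPLP1, RPLP2 and RPSA, but without the 9 RPS6K genes, which encode kinases. The rule took 55 of the 13288 genes, 29 named for the large subunit and 26 for the small subunit. Of these, 48 are canonical ribosomal proteins, 5 are paralogs (RPL3L, RPL7L1, RPL22L1, RPL26L1 and RPL36AL) and 2 are read-through genes that the table names RPL17-C18orf32 and RPL36A-HNRNPH2. The canonical list that was used holds 79 genes, so 31 of them are not among these members under their own symbol.

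All animals were male Tibetan minipigs. The sham group (3 minipigs) had the chest opened without a constriction, and the DAC group (3 minipigs) had the descending aorta narrowed with sutures over gauze until the pressure upstream exceeded that downstream, which loads the left ventricle with pressure. Tissue was taken at week 12 after surgery, and the labels name heart or ventricular tissue without the chamber or the region of the wall. The values are FPKM, fragments scaled by transcript length and by the number of mapped fragments, with 1 library per minipig (sham 1, 2 and 3, DAC 4, 5 and 6).

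The cytosolic ribosome is built from a small subunit, which reads the mRNA, and a large subunit, which joins the amino acids. Its proteins are made in nearly matching amounts from genes scattered over the genome, and most of their mRNAs begin with a terminal oligopyrimidine tract (5′ TOP), through which the kinase mTOR and the protein LARP1 set their translation. In the heart, growth under pressure load is known to require more ribosomes, and striated muscle carries a paralog of RPL3 of its own, RPL3L.

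The summed FPKM of the 6 libraries lay between 281377 in sham 1 and 308771 in DAC 5. DAC 4 stood at 281947, and the depth in reads is unknown. Cardiomyocyte markers were high in every library: MYH7, the slow myosin heavy chain, lay between 1781 and 1935 FPKM and TNNT2, cardiac troponin T, between 3593 and 5915 FPKM. The mitochondrially encoded genes took 24.0%, 25.1% and 25.3% of all FPKM in sham and 27.2%, 32.8% and 27.1% in DAC. Every DAC library was above every sham library in this share, DAC 5 stood apart as the highest, and all 13 of these genes had the higher mean in DAC. Since FPKM is relative to the total, the fold changes of the members were also computed without these genes, and their median was then 0.089. In bulk tissue, fewer cells of a type and less RNA per cell cannot be told apart. A gene was called at an unadjusted P under 0.05 in limma, the threshold of the study, and none of the 11029 genes tested had an adjusted P under 0.05 (smallest value 0.106).

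No ribosomal protein gene was called between DAC and sham. All 55 passed the filter on low values, and 0 of 55 were called, against 8.51% of all genes tested (939 of 11029, 3.25% higher and 5.27% lower in DAC). The smallest unadjusted P among them was that of RPL3, the large subunit protein next to the peptidyl transferase centre (log2 fold change 0.32 ± 0.15 SE, limma adjusted P = 0.596). The mean log2 level was higher in DAC for 39 of 55 members, compared with 46.6% of all genes tested. The median log2 fold change was 0.045 over the members and −0.016 over all genes tested, and it was 0.049 over the large and 0.043 over the small subunit genes. Without DAC 5, 23 of 55 members had the higher mean in DAC and their median was −0.017.

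The intervals bound how large a change these samples allow. Log2 fold changes were taken in FPKM + 1. On that scale the 95% interval lay within 1.5-fold in both directions for 48 of 55 members, and within ±1 for all 55. The added 1 shrinks fold changes of low genes, so for RPL22L1 (mean 1.60 FPKM) these are not bounds on FPKM itself. The 7 members with a wider interval were RPL3, RPL3L, RPL36AL, RPL36A-HNRNPH2, RPS7, RPS9 and RPS15. Fitted log2 fold changes ran from −0.34 in RPS9 to 0.32 in RPL3, as the plot of differences with their intervals shows.

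**Figure D1:**
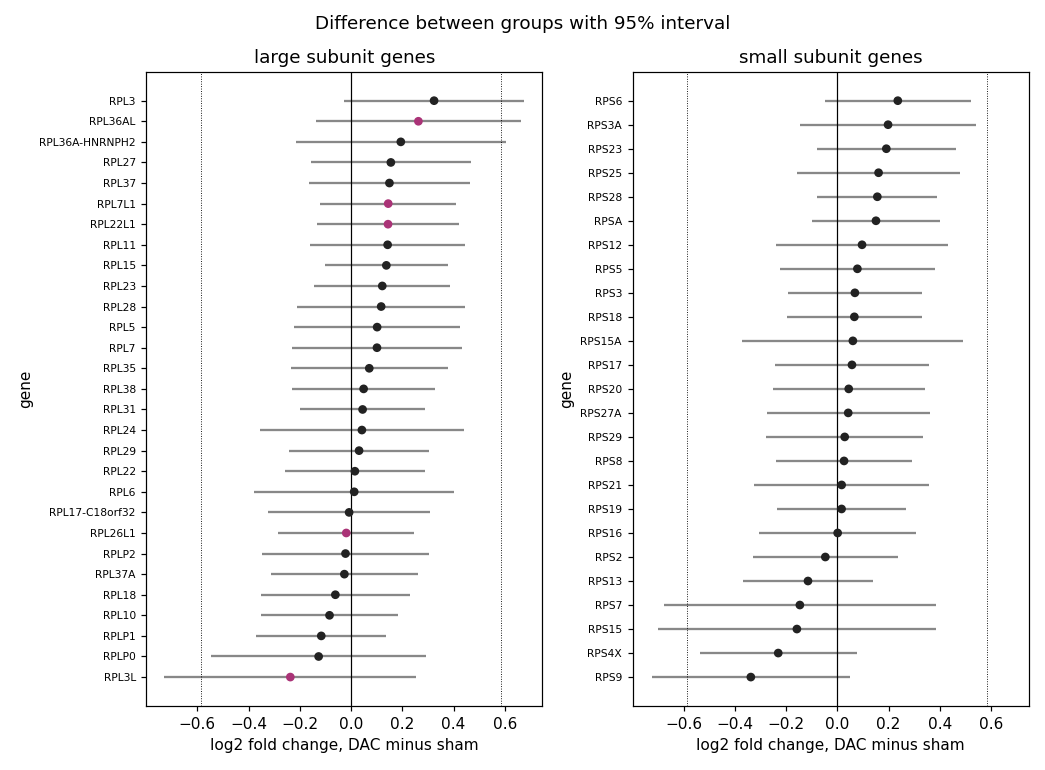
Log2 fold change of log2(FPKM + 1), DAC minus sham, on the horizontal axis for 29 large subunit genes (left) and 25 small subunit genes (right), with paralogs in purple. Points are limma estimates from 3 sham and 3 DAC minipigs, lines their 95% intervals and dotted lines a 1.5-fold change in FPKM + 1. Every interval crosses 0, with 20 of 29 and 19 of 25 estimates above it.

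The summed FPKM of the 55 genes made up a similar part of all FPKM in both groups. It was 2.86%, 2.91% and 2.72% in sham 1 to 3 and 2.59%, 2.97% and 2.86% in DAC 4 to 6. The groups overlapped, DAC held both the lowest and the highest library, and the means were 2.83% ± 0.10 and 2.81% ± 0.19 (SD, n = 3 each). With the mitochondrially encoded genes left out of the total, the share was 3.76%, 3.89% and 3.64% in sham and 3.56%, 4.42% and 3.92% in DAC. DAC 5 was then the highest library and DAC 4 still the lowest, with group means of 3.76% ± 0.12 and 3.97% ± 0.43.

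The ribosomal protein genes differed more between minipigs of the DAC group than between the groups. DAC 5 was the highest of the 6 libraries for 37 of 55 members, against 14.9% of all genes tested. DAC 4 was the lowest for 32 of 55, against 21.1% of all genes. Both held at once for 26 of 55 members, against 4.32% of all genes tested, and 48 of 55 members were higher in DAC 5 than in DAC 4, against 45.6% of all genes.

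Relative to each gene's sham mean on the log2 scale, the median member stood at −0.02, 0.06 and −0.04 in sham 1 to 3. In DAC it stood at −0.12 in DAC 4, at 0.20 in DAC 5 and at 0.06 in DAC 6. The 3 sham libraries thus lay closer together than the 3 DAC libraries, and DAC 6 was within the sham range. In the large and the small subunit genes alike, DAC 4 was lowest (−0.11 and −0.14) and DAC 5 highest (0.18 and 0.22). DAC 6 stood at 0.08 in the large subunit genes, above every sham library (at most 0.04). In the small subunit genes it stood at 0.05, below sham 2 at 0.07. The median SD of the members on the log2 scale was 0.099 in sham and 0.19 in DAC, compared with 0.14 and 0.17 over all genes tested. The SD was larger in DAC for 47 of 55 members and for 6456 of the 11029 genes tested.

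**Figure D2:**
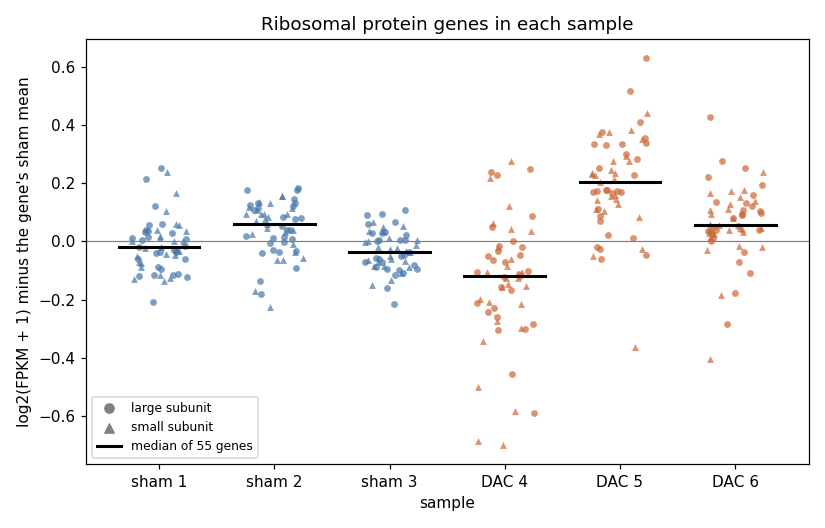
Each point is 1 of the 55 ribosomal protein genes in 1 library, as log2(FPKM + 1) minus the mean of that gene over the 3 sham libraries (vertical axis), with circles for the large and triangles for the small subunit and a black bar at the median. The median is −0.12 in DAC 4 and 0.20 in DAC 5. The points of DAC 4 and DAC 5 spread wider than those of the 3 sham libraries. Part of this is built in, since the mean subtracted comes from the sham libraries themselves.

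The difference between DAC 5 and DAC 4 was largest in RPS7 and RPS15, which were picked here after their values were seen. RPS7, a small subunit protein that also binds MDM2, had 267, 245 and 257 FPKM in sham and 159, 298 and 262 FPKM in DAC. RPS15, a protein of the small subunit head, had 42.3, 34.8 and 41.2 FPKM in sham and 23.8, 43.6 and 41.6 FPKM in DAC. RPS7 overlaps 3 other listed genes, while RPS15 overlaps none. In both genes DAC 4 was far below every other library, DAC 5 was the highest and the groups overlapped. On the log2 scale, DAC 5 exceeded DAC 4 by 0.90 in RPS7 and by 0.84 in RPS15, against a median of 0.36 over the members and −0.03 over all genes tested. The 7 members that were instead lower in DAC 5 than in DAC 4 were RPL5, RPL15, RPL22L1, RPL26L1, RPL31, RPS4X and RPS28, by 0.18 at most (RPL15).

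Mitochondrial transcripts and cell type markers also differed between libraries. The 13 mitochondrially encoded genes had a median of 0.51 above the sham mean in DAC 5 and of 0.05 in DAC 4 on the log2 scale, and 3 of them were called higher in DAC. Of 13 leukocyte markers 9 were listed, with a summed level of 60.4 to 70.8 FPKM in sham and of 55.2 (DAC 4), 76.4 (DAC 5) and 65.0 (DAC 6) in DAC, while CD3D, CD2, MS4A1 and LYZ were not among the listed genes. Of the 8 leukocyte markers tested, CD163 was called lower and none higher. The 11 fibroblast markers summed to 562 to 650 FPKM in sham and to 789, 791 and 885 FPKM in DAC 4 to 6. The mean log2 level was higher in DAC for 9 of them, and 5 were called higher, COL1A2, COL1A1, POSTN, COL3A1 and LUM. DCN and TCF21 had the lower mean in DAC (log2 fold changes −0.01 and −0.02). Of 10 endothelial markers 2 had the higher mean in DAC, and 1 was called higher and 2 lower. All 8 smooth muscle and pericyte markers had the higher mean in DAC, and 1 was called higher. Of 10 cardiomyocyte markers 4 had the higher mean in DAC, and 1 was called lower. The part of these in the ribosomal protein values was not tested.

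Calls among the members changed with the DAC minipig left out, and only without DAC 4 were they above the share of all genes. Without DAC 4, limma called 8 of 55 members higher (2.79% of all genes were), among them RPL3, RPS3A, RPL36AL, RPL36A-HNRNPH2, RPL37, RPS23 and RPL27, with adjusted P between 0.635 and 0.663. Without DAC 5, 2 of 55 were called lower (4.4% of all genes were), RPS9 and RPL3L. Without DAC 6, RPS6 was called higher and RPS4X lower (2.89% and 6.15% of all genes). Under quantile normalization 5 members were called higher (3.79% of all genes), RPL27, RPL3, RPS23, RPS6 and RPS28. RPL3 alone was called with the mitochondrially encoded genes left out (4.56% of all genes higher) and with the samples scaled to the genes other than these and the members (4.6%). No member was called with any single sham minipig left out.

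By level, the members spanned from 1.60 to 639 FPKM in the mean over all 6 libraries, and the 10 highest held 47.4% of their summed FPKM. FPKM allows for transcript length, but ribosomal protein genes have many near-identical processed copies in mammalian genomes. How reads shared between such copies were assigned is not given in the sources used here, so the level of a single gene is uncertain. A total of 19 members also overlap another listed gene, and whether strand was used in counting is not given either.

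**Figure D3:**
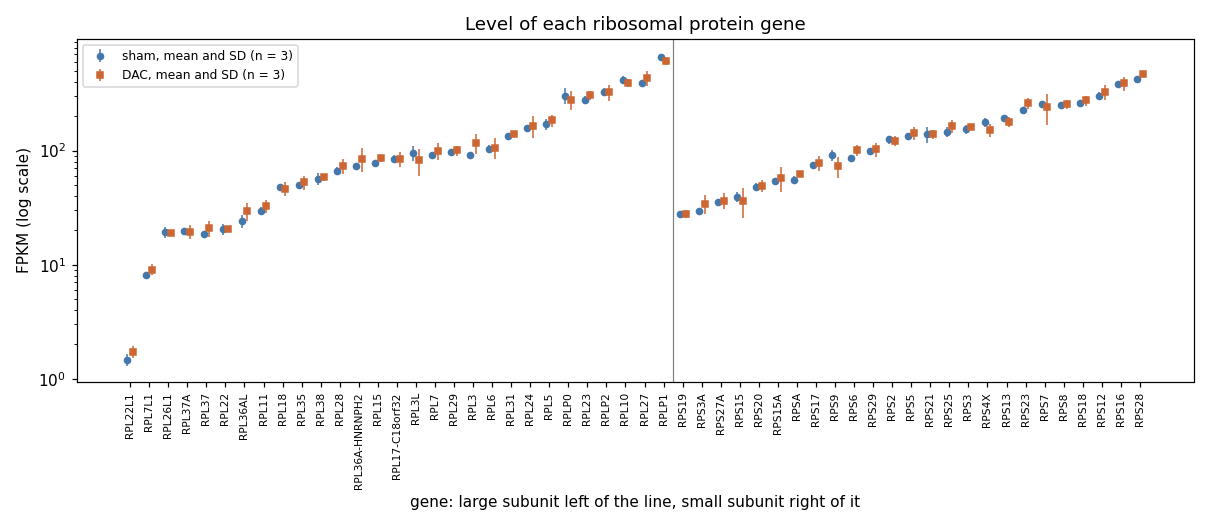
Mean FPKM with SD (vertical axis, log scale) of 54 of the genes in 3 sham (blue circles) and 3 DAC (orange squares) minipigs, ordered by level within the large (left) and the small subunit (right). The means over all 6 libraries range from RPL22L1 at 1.60 to RPLP1 at 639 FPKM, and the bars of the groups overlap for most genes.

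The stalk proteins of the large subunit, which recruit the translation factors, were among the highest. RPLP1 had the highest mean of all members, with 682, 682 and 628 FPKM in sham and 554, 654 and 632 FPKM in DAC. DAC 4 was the lowest library and the groups overlapped (log2 fold change −0.12, 95% interval −0.37 to 0.14). RPLP2, its partner in the stalk dimer, had 300.0, 353 and 327 FPKM in sham and 300.3, 382 and 288 FPKM in DAC, so that DAC held the highest and the lowest library. RPLP2 overlaps 5 other listed genes, and its log2 fold change of −0.02 took the other sign under 3 other scalings. RPLP0, the base on which the stalk dimers sit, had 358, 273 and 277 FPKM in sham and 219, 305 and 312 FPKM in DAC. Sham 1 was its highest and DAC 4 its lowest library, and the log2 fold change was −0.13 with an interval of −0.55 to 0.29. The levels of RPLP2 and RPLP0, next to each other in order within the stalk, differed by less than their spread.

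Beside RPLP1, the highest large subunit genes were RPL27 and RPL10. RPL27 had 381, 378 and 407 FPKM in sham and 370, 504 and 434 FPKM in DAC. DAC 5 and DAC 6 were above and DAC 4 below all sham libraries, and the log2 fold change was 0.15 ± 0.13 SE. RPL10, a late-joining protein near the catalytic centre, had 405, 453 and 390 FPKM in sham and 355, 408 and 416 FPKM in DAC, and the groups overlapped. Its log2 fold change was −0.08 and became 0.03 under quantile normalization. The levels of RPL27 and RPL10 differed by less than the spread between libraries.

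In the small subunit RPS28 and RPS16 were highest. RPS28, which lies at the mRNA exit, had 412, 449 and 403 FPKM in sham and 490, 446 and 473 FPKM in DAC. Its pattern differed from that of most members, since DAC 4 was its highest library, and the groups overlapped only in sham 2 and DAC 5. RPS28 had a log2 fold change of 0.16, with an interval of −0.08 to 0.39. RPS16, whose tail reaches the decoding site, had 373, 410 and 372 FPKM in sham and 333, 443 and 388 FPKM in DAC, which gave a log2 fold change of 0.00. DAC 4 was its lowest and DAC 5 its highest library.

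The lowest members of the small subunit were RPS19, RPS3A and RPS27A. RPS19, known from Diamond-Blackfan anaemia, had 27.2, 29.3 and 26.3 FPKM in sham and 25.6, 29.9 and 28.5 FPKM in DAC. RPS3A had 29.3, 28.6 and 30.1 FPKM in sham and 27.6, 40.2 and 34.8 FPKM in DAC, with DAC 5 and DAC 6 above and DAC 4 below every sham library. RPS27A, made as a fusion with ubiquitin, had 34.5, 36.6 and 34.2 FPKM in sham and 30.1, 41.5 and 37.9 FPKM in DAC. All 3 genes overlapped between the groups, with log2 fold changes of 0.02, 0.20 and 0.04, and RPS3A was called only without DAC 4 (0.34). RPS19 and RPS27A each overlap another listed gene.

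In the 5S particle, which is built into the large subunit, RPL5 and RPL11 bind 5S rRNA, and free RPL5 and RPL11 can hold back MDM2. RPL5 had 160, 194 and 159 FPKM in sham and 201, 192 and 158 FPKM in DAC. RPL11 had 28.1, 32.3 and 27.9 FPKM in sham and 29.1, 37.4 and 31.7 FPKM in DAC. The groups overlapped in both, with log2 fold changes of 0.10 and 0.14. The particle pairs these proteins one to one, while the FPKM of RPL5 averaged 177 and that of RPL11 31.1. RPL5 was highest in DAC 4 and RPL11 in DAC 5.

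RPL3 and its striated muscle paralog RPL3L differed in how they stood in the groups. RPL3 (chr5:8922665-8929767, plus strand, Sscrofa11.1) had 89.1, 92.0 and 93.3 FPKM in sham and 97.3, 142 and 109 FPKM in DAC. Every DAC library was above every sham library, and RPL3 was the only 1 of 55 members whose groups did not overlap with DAC above, against 6.01% of all genes tested. With DAC below, 0 of 55 members had groups that did not overlap, against 8.91% of all genes tested. The log2 fold change of RPL3 was 0.32 with an interval of −0.03 to 0.68, and it ranged from 0.17 (without DAC 5) to 0.44 (without DAC 4) with each minipig left out in turn.

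RPL3L (chr3:40005075-40016702, plus strand) had 110, 94.4 and 81.2 FPKM in sham and 62.3, 106 and 77.3 FPKM in DAC. DAC 4 and DAC 6 were below all sham libraries, while DAC 5 lay among them. Its log2 fold change was −0.24 with an interval of −0.73 to 0.25, and it was −0.44 without DAC 5 and −0.06 without DAC 4. RPL3L begins 1967 bases beyond the end of RPS2 on the same strand and overlaps 1 other listed gene. RPS2 itself, with 128, 133 and 114 FPKM in sham and 120, 134 and 110 FPKM in DAC, overlapped between the groups.

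The ratio of RPL3L to RPL3 was taken within each library, where both genes share the scaling of that library. As log2 of FPKM + 1, it was 0.30, 0.04 and −0.20 in sham and −0.63, −0.42 and −0.49 in DAC. Every DAC library was below every sham library, including DAC 4 and DAC 5, which differed most in the members as a whole. The mean was 0.05 ± 0.25 in sham and −0.51 ± 0.11 in DAC (SD), a difference of −0.56 (two-sided exact permutation test, P = 0.1). This is the smallest P that this permutation test can give with 3 minipigs against 3, so it cannot go below 0.05 whatever the size of the difference. In FPKM, RPL3L stood at 1.23, 1.03 and 0.87 times RPL3 in sham and at 0.64, 0.75 and 0.71 times RPL3 in DAC. Without any single minipig the difference stayed negative, reaching −0.68 at its lowest. RPL3L is known from striated muscle and RPL3 from all cells. The fibroblast markers above had the higher sum in DAC, with 9 of 11 higher in the mean. So were 8 of 8 smooth muscle and pericyte, 2 of 10 endothelial and 4 of 10 cardiomyocyte markers. The part of these cell types in the ratio was not tested.

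**Figure D4:**
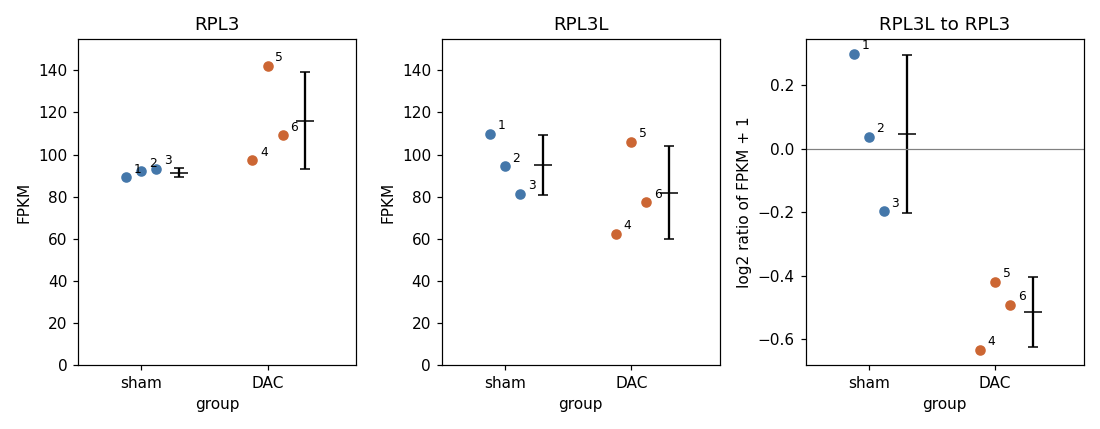
FPKM of RPL3 (left) and RPL3L (middle), and the log2 ratio of RPL3L to RPL3 (right), in each sham (blue) and DAC (orange) minipig, numbered, with black marks for the group mean and SD (n = 3). RPL3 and the ratio do not overlap between the groups, with the ratio between −0.20 and 0.30 in sham and between −0.63 and −0.42 in DAC, while RPL3L overlaps through DAC 5.

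The other paralogs were low. RPL7L1, which acts in the maturation of the large subunit, had 8.25, 8.18 and 7.79 FPKM in sham and 7.96, 9.24 and 9.99 FPKM in DAC. Its parent RPL7 was higher by about an order of magnitude, with 92.9, 90.3 and 93.8 FPKM in sham and 82.2, 116 and 102 FPKM in DAC. The log2 ratio of the pair was −3.36 ± 0.06 in sham and −3.32 ± 0.17 in DAC, closer to each other than the spread in DAC.

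RPL22L1 was the lowest member, with 1.28, 1.50 and 1.64 FPKM in sham and 1.89, 1.79 and 1.51 FPKM in DAC. Its parent RPL22 had 22.2, 17.8 and 21.2 FPKM in sham and 19.6, 20.5 and 21.5 FPKM in DAC. Neither gene separated the groups, and their log2 ratio (−3.11 ± 0.22 and −2.98 ± 0.17) overlapped as well. RPL26L1, a near copy of RPL26, had 19.5, 21.5 and 17.2 FPKM in sham and 18.9, 18.5 and 19.9 FPKM in DAC, so that all DAC libraries lay within the sham range. RPL26 was not analysed here, since no gene of the table carries that symbol.

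RPL36AL, a paralog of RPL36A that lies on chromosome 1, had 20.7, 27.3 and 24.5 FPKM in sham and 23.1, 32.2 and 32.7 FPKM in DAC. DAC 5 and DAC 6 were above all sham libraries and DAC 4 was among them, and the log2 fold change of RPL36AL was 0.26 ± 0.17 SE. The read-through RPL36A-HNRNPH2 on chromosome X had 69.7, 71.3 and 77.7 FPKM in sham and 65.2, 105 and 85.0 FPKM in DAC, and its ratio to RPL36AL overlapped between the groups. RPS4X, the X-linked parent of the RPS4Y genes, had 168, 196 and 166 FPKM in sham and 143, 137 and 173 FPKM in DAC. Only DAC 6 lay within the sham range of RPS4X (log2 fold change −0.23, limma adjusted P = 0.647), and RPS4X was the only 1 of 55 members with DAC 5 as its lowest library. RPS4X was called lower without DAC 6 alone (−0.33).

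Of the remaining members, RPS9 and RPS6 had the next smallest unadjusted P after RPL3 and were picked here for that. RPS9, a protein near the mRNA entry of the small subunit, had 102, 87.1 and 83.9 FPKM in sham and 60.2, 89.0 and 68.2 FPKM in DAC. DAC 4 and DAC 6 were below every sham library and DAC 5 among them, as in RPL3L, and the log2 fold change was −0.34 ± 0.16 SE (limma adjusted P = 0.608) and −0.49 without DAC 5. RPS6, the ribosomal target of the S6 kinases, had 78.0, 89.9 and 88.1 FPKM in sham and 103, 110 and 88.8 FPKM in DAC. DAC 4 and DAC 5 were above every sham library of RPS6 and DAC 6 was within their range (log2 fold change 0.24 ± 0.12 SE, limma adjusted P = 0.629).

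The 55 genes lie on 16 chromosomes, with 10 on chromosome 6 and 7 on chromosome 1. Apart from RPS2 and RPL3L, only RPS29 and RPL36AL lie within 50000 bases of each other, 15007 bases apart on chromosome 1. RPS29 had 100, 95.2 and 103 FPKM in sham and 86.8, 117 and 104 FPKM in DAC, where DAC 4 was the lowest and DAC 5 the highest library, while RPL36AL was highest in DAC 6.

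A further 6 genes that the table leaves without a symbol carry the name of a ribosomal protein in a table of gene identifiers, and are not members: RPL4, RPL7A, RPL14, RPL23A, RPS24 and RPS27L. None was called. RPL23A was higher than any member but RPLP1, with 506, 543 and 478 FPKM in sham and 515, 737 and 574 FPKM in DAC, and RPL4 had 45.0, 46.4 and 44.8 FPKM in sham and 38.4, 66.0 and 49.2 FPKM in DAC. DAC 5 was the highest library for RPL4, RPL7A, RPL23A and RPS24, and DAC 4 the lowest for RPL4, RPL7A, RPL14 and RPS24.

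Genes whose products work with the ribosome were read against the same background, 8.51% of all genes called (3.25% higher and 5.27% lower), and no difference from it was tested. Of 14 other 5′ TOP genes tested, which share the ribosomal proteins' translational control, 0 were called, 8 were higher in DAC and the median log2 fold change was 0.06. Their median was −0.05 in DAC 4 and 0.23 in DAC 5 relative to the sham mean, and 11 of 14 were higher in DAC 5 than in DAC 4. RACK1, a scaffold on the small subunit, had 215, 224 and 209 FPKM in sham and 153, 252 and 224 FPKM in DAC, so that DAC 4 was lowest and DAC 5 highest. FAU, whose product is processed to a small subunit protein, had 56.1, 59.4 and 54.1 FPKM in sham and 47.6, 41.6 and 54.8 FPKM in DAC, and here DAC 5 was the lowest library.

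The 67 mitochondrial ribosomal protein genes, which form the separate ribosome of the mitochondrion, had a median log2 fold change of −0.06. Of these, 0 were called higher and 2 lower, MRPL28 (−0.32) and MRPS11 (−0.37). MRPL28 was also called with any single minipig left out, while MRPS11 lost its call under 4 other scalings and without DAC 4 (−0.21) or any single sham minipig (−0.40 to −0.33). Their median stood at −0.24 in DAC 4 and 0.08 in DAC 5 relative to the sham mean, and 54 of 67 were higher in DAC 5 than in DAC 4. DAC 4 was thus the lowest library by the median of both kinds of ribosomal protein gene, while DAC 5 stood highest in both.

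**Figure D5:**
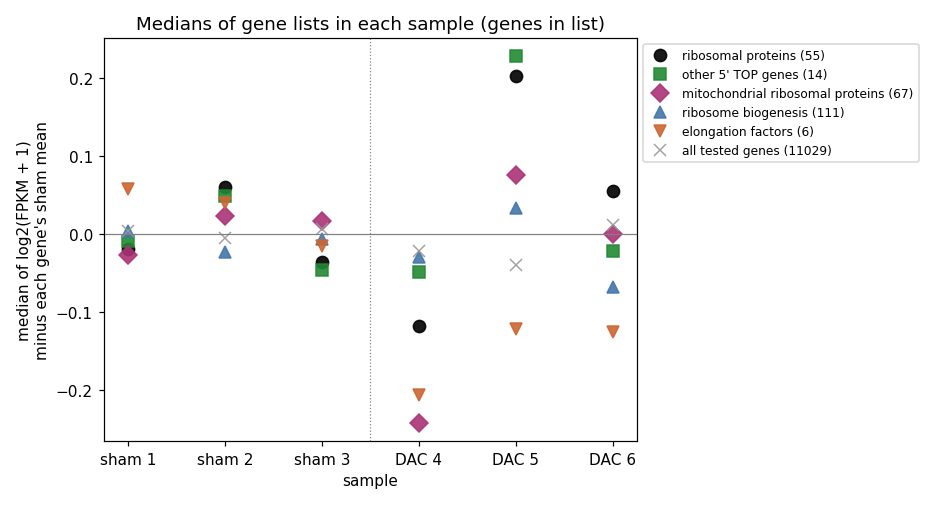
Median over the genes of each list of log2(FPKM + 1) minus the sham mean of the gene (vertical axis) in each of the 6 libraries, with the number of genes in each list in the legend. Ribosomal proteins and other 5′ TOP genes stand highest in DAC 5 at 0.20 and 0.23, mitochondrial ribosomal proteins lowest in DAC 4 at −0.24, and all tested genes stay between −0.04 and 0.01.

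Ribosome biogenesis factors, which process rRNA and assemble the subunits, numbered 111 tested, of which 2 were called higher and 3 lower. UTP18, of the small subunit processome, was called higher (1.40, 2.04 and 1.47 against 2.58, 2.45 and 2.13 FPKM, log2 fold change 0.37), as did TAF1D, a cofactor of RNA polymerase I (0.40). NOC2L (−0.44), EMG1 (−0.62) and TSR3 (−0.30), which act in subunit assembly and in modification of 18S rRNA, were called lower. NOC2L was called with any single minipig left out, EMG1 lost its call without sham 3 (−0.47), and TSR3 without sham 1 (−0.27) or DAC 4 (−0.25). The calls of UTP18 and TAF1D were each lost without sham 1, sham 3, DAC 4 or DAC 5, with log2 fold changes of 0.30 to 0.35 and of 0.28 to 0.40 there. The median of the list was −0.03, with 0.03 in DAC 5 and −0.03 in DAC 4 relative to the sham mean.

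Of 6 elongation factor genes, EEF1A2, the form of the tRNA-delivering factor in muscle and nerve, was called lower, with 642, 526 and 620 FPKM in sham and 502, 500.3 and 446 FPKM in DAC. Its groups did not overlap, but the call was lost under 4 other scalings (log2 fold change −0.28 to −0.18 there, and −0.30 as reported) and without sham 1, sham 3 or DAC 6 (−0.27 to −0.24). The other 5 were not called, among them EEF2, the translocation factor, with 617, 540 and 607 against 521, 616 and 560 FPKM. Of 16 regulators of mTOR and 5′ TOP mRNAs 0 were called, 7 being higher in DAC. LARP1, which binds the 5′ TOP, had 33.9, 41.3 and 43.1 FPKM in sham and 34.5, 34.8 and 32.5 FPKM in DAC, and MTOR had a log2 fold change of −0.16. Of 11 genes for ribosome-bound chaperones and quality control only ZNF598, a ligase that senses collided ribosomes, was called (−0.32), and of 8 chaperones and surveillance factors of free ribosomal proteins only UBE2O, which marks unassembled ones for decay (−0.40). The call of ZNF598 was lost without sham 1, sham 3 or DAC 6 (−0.32 to −0.24), and that of UBE2O under 2 other scalings and without any single minipig but sham 2 (−0.41 to −0.29).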

How the data were processed

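RNA of 3 sham and 3 DAC minipigs was made into NEBNext Ultra libraries and read from both ends on an Illumina HiSeq. The authors deposited 1 table of FPKM per gene, with 1 column per minipig. The submitters' processing notes name HISAT2 and the build susScr11 (Sscrofa11.1); the quantification program and its handling of shared reads are not given in the sources used here. Libraries were not pooled, and depth is unknown, so precision rests on the spread between minipigs. The columns sum to different totals and were not rescaled.

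Log2(FPKM + 1) was compared with limma 3.58.1 in R 4.3.3 (moderated variance with a trend over the mean) in the genes that reached 1 FPKM in 3 or more samples. Calls used an unadjusted P under 0.05, as in the study, with Benjamini-Hochberg adjustment over all 11029 genes tested. Intervals are 95% intervals of that fit. The ratio of RPL3L to RPL3 was tested by an exact permutation test in Python 3.11.15 with scipy 1.17.1, and of 4 paralog ratios only this 1 was tested. On simulated data of 11029 genes, 195 of 200 genes given a log2 change of 1 were called, and 5.15% of the unchanged genes. The simulated noise was independent between genes, and the fitted changes of the members ran only from −0.34 to 0.32. The simulation thus does not show how often changes of that size would be called.

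Values in every sample are given for called members, the 3 highest and 3 lowest members of each subunit, the stalk proteins, listed paralogs and parents, RPL5 and RPL11, but 1 small subunit gene is counted and not reported here by itself. Others named were picked after their values were seen. Of other lists, called genes and a few others are named. Members and lists were chosen with earlier results of these data known, so no set test was made. The fit was repeated unfiltered, above 5 FPKM, with 4 other scalings (to the median, by quantiles, without mitochondrially encoded genes, and to the genes other than these and the members), a pseudocount of 0.1, unmoderated variance, sample weights, P under 0.01, other member rules, and without each minipig. No batch is named in the labels.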

Additional observations from a re-analysis of the deposited data

How the results depend on the processing

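The absence of calls among the ribosomal protein genes held without the filter, above 5 FPKM and after median scaling. It also held with a pseudocount of 0.1, unmoderated variance or sample weights. At P under 0.01 it was fixed in advance, since no member reached P under 0.05 in the main fit. The absence of calls did not hold under quantile normalization, where 5 of 55 members were called higher (3.79% of all genes). With the mitochondrially encoded genes left out, 1 of 55 was called higher (4.56% of all genes). With scaling to the genes other than these and the members, 1 of 55 was as well (4.6% of all genes). A single member is 1.82% of the 55, below the share of all genes in both of these settings, and the cause was not tested. With each minipig left out, 0 to 8 members were called higher (8 without DAC 4, against 2.79% of all genes). Between 0 and 2 were called lower (2 without DAC 5, against 4.4% of all genes). Between 23 (without DAC 5) and 47 (without DAC 4) then had the higher mean in DAC, and their median log2 fold change ran from −0.017 to 0.12. It was 0.044 both with the 6 further named genes added and with FAU added and the paralogs left out. The difference in the share of summed FPKM, −0.02 percentage points, became 0.20 without the mitochondrially encoded genes, and ran from −0.10 to 0.08 with each minipig left out. The difference in the log2 ratio of RPL3L to RPL3 kept its sign throughout (lowest value −0.68 with a minipig left out). No setting could take it below an exact P of 0.1.

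Some log2 fold changes near 0 took the other sign, none of them called. RPL26L1 became 0.0023 under median scaling, 0.026 under quantile normalization, 0.023 without mitochondrially encoded genes, 0.026 with scaling to the other genes and 0.0059 with sample weights. RPLP2 became 0.076 under quantile normalization, 0.022 without mitochondrially encoded genes and 0.025 with scaling to the other genes, and RPL10 became 0.027 under quantile normalization. With each minipig left out, the values ran from −0.10 to 0.054 in RPL26L1, −0.15 to 0.055 in RPLP2, −0.22 to 0.037 in RPLP0, −0.10 to 0.11 in RPS16, −0.031 to 0.078 in RPS19, −0.054 to 0.17 in RPS27A, −0.015 to 0.23 in RPL7 and −0.076 to 0.076 in RPL22. Depth is unknown, and with 3 minipigs a group the median half-width of the members' 95% intervals was 0.31 on the log2 scale. In a member of typical spread, a fitted change smaller than this would not be called. A true change of about that size could thus be missed.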
